A study of Mus musculus with 32 samples.

Results

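A set of p53 pathway genes, 9 of the 38201 genes in the deposited gene tables, were followed across 7 knockdowns in P19 cells, a mouse embryonal carcinoma line. They were chosen by name for their place in the pathway: *Trp53*, *Mdm2*, *Mdm4*, *Cdkn1a*, *Ccng1*, *Zmat3*, *Phlda3*, *Bax* and *Polh*. The exon bins of *Mdm2*, *Mdm4* and *Trp53*, 67 of 354841 bins, were taken with them. All 9 genes were found in both tables, were above 0 in every library and passed the filter on low values in both fractions.

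The study asked how individual SR proteins, a family of splicing factors, affect messenger RNA in the cell and its delivery to the cytoplasm. It found all of them in complexes with the export receptor NXF1, with SRSF2 linked to NXF1 only indirectly through RNA. P19 cells were transfected for 36 h with esiRNA, a pool of short interfering RNAs, against SRSF1, SRSF2, SRSF3, SRSF4, SRSF5, SRSF6 or SRSF7, and the control cells were mock transfected with esiRNA against GFP. All groups shared the line, the transfection reagent and the time, and poly(A)+ RNA of whole cells and of the cytoplasm was sequenced with 2 libraries per group, lettered A and B, giving 16 groups and 32 libraries. A knockdown in 1 line is a partial loss, so the remaining SR protein and the other family members were still present, and the libraries are bulk RNA, in which fewer cells of a kind and less RNA per cell cannot be told apart. The study's methods call the replicates biological, and its design text names technical ones as well, so the p-values below measure the spread between these libraries.

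The protein p53, encoded by *Trp53*, is a transcription factor that is held low in unstressed cells and rises after DNA damage, ribosomal stress or other insults. MDM2 marks it for destruction and MDM4 (MDMX) masks its activation domain, and *Mdm2* is itself a p53 target, which closes a feedback loop. Further targets stop the cell cycle, slow growth signals, trigger cell death or help DNA repair. Splicing of *Mdm4* and *Mdm2* is a known point at which splicing factors meet the pathway: skipping of an internal exon of *Mdm4* gives a short form that does not yield full-length protein.

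p53 binds DNA through pairs of a short half-site. To show what such a site looks like in these genes, promoter windows of 250 bases before to 50 after each RefSeq start (GRCm38.p6) were searched on both strands for the palindromic p53 half-site consensus with no mismatch. Of the 9 genes, 8 had a window, with 2 windows each for *Cdkn1a* and *Mdm4*, and 5 of these 10 windows held a match (50%), against 8.36% of all 32851 windows. The stretches below give the half-site in capitals with the neighbouring bases in lower case, 5′ to 3′ on the strand of the gene.
*Cdkn1a*, chr17:29090918-29090947, plus strand: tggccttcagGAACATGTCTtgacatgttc
*Mdm2*, chr10:117710925-117710954, minus strand: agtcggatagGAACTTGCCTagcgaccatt
*Bax*, chr7:45467080-45467109, minus strand: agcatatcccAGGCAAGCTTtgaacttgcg
*Ccng1*, chr11:40755452-40755481, minus strand: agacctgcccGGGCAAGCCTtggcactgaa
*Trp53*, chr11:69580274-69580303, plus strand: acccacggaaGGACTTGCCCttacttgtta
The *Cdkn1a* window at chr17:29090729-29091028 held 2 matches, the shown one beginning 51 bases before the RefSeq start of that window and the other 73 bases before it. The second *Cdkn1a* window, at chr17:29093519-29093818 around a start further downstream, held none. The windows of *Mdm4*, *Phlda3* and *Polh* held none of these letters in this order, and *Zmat3* was not searched. A match is a description of letters and not evidence of binding.

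One exon of *Mdm4* is printed because its skipping is the best known splicing event of the pathway. It is exon 7 of 12 in the longest transcript, spans 68 bases, and lies on the minus strand of chromosome 1 at chr1:133004654-133004721 in the mm10 coordinates of the deposited bins. The sequence was read from mm9 at chr1:134901221-134901308, with the exon in capitals and 10 intronic bases on each side in lower case.
*Mdm4* exon 7: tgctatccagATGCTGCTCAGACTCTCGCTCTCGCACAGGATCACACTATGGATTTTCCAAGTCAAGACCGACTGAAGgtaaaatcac
Its length leaves a remainder of 2 after division by 3, so leaving it out shifts the reading frame. An annotated transcript of the mm9 annotation lacks just this exon.

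The deposited gene tables summed to 29596616 to 32831667 scaled reads per library in the whole cell and to 32128467 to 38371995 in the cytoplasm, and the exon-bin tables held 38874542 to 59470730 and 41417374 to 72741730 reads. The targeted SR gene was left at 48.8 to 68.7% of GFP in the whole cell, below both GFP libraries in 7 of 7 knockdowns, and at 37.8 to 77.0% in the cytoplasm, below both in 6 of 7, the exception being SRSF2 at 77.0%. All 6 pluripotency markers (*Pou5f1*, *Sox2*, *Lin28a*, *Utf1*, *Sall4*, *Dnmt3b*) were above 0 in every library, with summed levels of 59827 to 102663 scaled reads in the whole cell. The letters stood apart. The 6 epithelial and smooth muscle markers summed to 3095 to 5923 scaled reads in the A libraries of the whole cell and to 11688 to 17428 in the B libraries, and in the cytoplasm 6 exocrine gland markers summed to 1017 to 1607 in 7 of the 8 A libraries, to 18.1 in the SRSF2 A library and to 6.18 to 14.9 in the B libraries. For this reason each value below is given for A and B, and a further model that fits the letter as well (the replicate block) is quoted wherever it changed a call.

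The 9 genes differed widely in level. Per transcript length, from the authors' FPKM value for GFP cells (1 value per condition), *Bax* led with 109 in the whole cell, followed by *Mdm2* at 57.9, *Mdm4* at 23.9, *Ccng1* at 13.4, *Zmat3* at 8.97, *Polh* at 5.91, *Phlda3* at 4.82, *Cdkn1a* at 2.75 and *Trp53* at 1.24. These pooled values carry no error, so close neighbours in the order, such as *Polh* and *Phlda3*, cannot be ranked. In the cytoplasm *Bax* again led with 274, *Mdm2* followed with 17.5, and *Mdm4* was last with 0.947. The transcription factor was thus the lowest of the 9 in whole cells, while the inhibitors *Mdm2* and *Mdm4* came next after *Bax*. *Trp53* has a processed pseudogene, *Trp53-ps*, on another chromosome, and no source used here gives how reads shared with it were assigned.

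The fractions also split the genes. Each gene's share of the cytoplasmic library was divided by its share of the whole-cell library of the same group and letter, over 16 such pairs. The median ratio over 12641 genes was 0.821, with the 5th percentile at 0.0845 and the 95th at 2.22. *Mdm4* stood at a median of 0.0342 (range 0.0182 to 0.196), and 1.19% of genes lay lower. *Ccng1* (0.312), *Mdm2* (0.361) and *Polh* (0.644) were also below the median gene, *Zmat3* (0.936) was close to it, and *Cdkn1a* (1.53), *Trp53* (1.79), *Phlda3* (2.26) and *Bax* (2.43) were above it. The ratio compares shares of 2 libraries and not molecules per cell. The ranges of *Mdm4* and of *Bax* did not overlap, as the plot of fraction ratios shows.

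**Figure D1:**
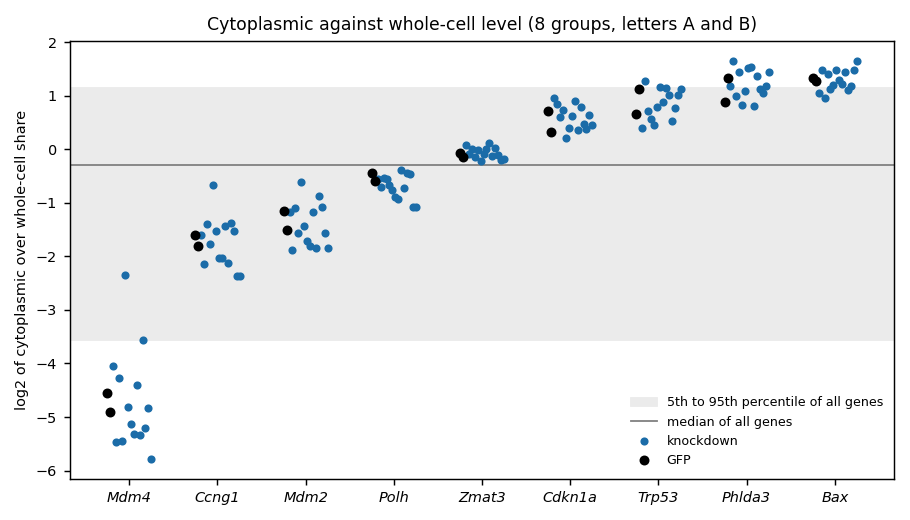
Cytoplasmic over whole-cell share on a log2 axis for the 9 genes, one point per group and letter (16 per gene), with GFP in black, the 5th to 95th percentile of all genes shaded and their median as a line. *Mdm4* lies at a median ratio of 0.0342, below the shaded band, and *Bax* and *Phlda3* lie at 2.43 and 2.26.

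Each knockdown was compared with GFP in each fraction to ask whether losing an SR protein moved the pathway. The genes were tested with limma on log2(scaled reads + 1) with Benjamini-Hochberg adjustment over all genes kept, 18539 in the whole cell and 17565 in the cytoplasm, at an adjusted p of 0.05. All 7 comparisons in a fraction used the same 2 GFP libraries, so they are not independent of each other. Without the block, 2 tests of members passed in the whole cell and 0 in the cytoplasm: *Polh* was higher after SRSF1 and after SRSF3 knockdown. With the block, 4 passed in the whole cell (those of *Polh*, and *Phlda3* and *Zmat3*, both lower after SRSF3) and 2 in the cytoplasm (*Polh* higher after SRSF1, *Phlda3* lower after SRSF3). At an unadjusted p under 0.05 the cytoplasm without the block had 1 member for SRSF1 and 2 for SRSF3, edgeR on exon-bin reads summed per gene called 0 for both, and DESeq2 on those reads called 1 for SRSF1, *Polh*, and 0 for SRSF3.

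These counts stand beside the share of all genes that passed. In the whole cell without the block this share was, for SRSF1 to SRSF7 in order, 0.804%, 0.0216%, 11.4%, 0.0%, 0.0%, 0.0% and 0.0162%. With the block it was 10.9%, 6.01%, 33.2%, 0.0108%, 0.00539%, 0.0216% and 1.09% for SRSF1 to SRSF7. In the cytoplasm without the block it was 0.0455% for SRSF1, 0.529% for SRSF3 and 0.0% for the other knockdowns, and with the block it was 5.91%, 1.84%, 13.9%, 0.0114%, 0.0%, 0.0911% and 0.074% for SRSF1 to SRSF7. After SRSF3 knockdown, 3 of 9 members with the block against 33.2% of all genes is a share near the background, and so is 1 of 9 without it against 11.4%. After SRSF2, SRSF4, SRSF5, SRSF6 and SRSF7 knockdown 0 of 9 members passed in either fraction and either model. At an unadjusted p under 0.05 without the block those knockdowns had 0, 1, 1, 1 and 1 members in the whole cell and 0, 0, 0, 0 and 1 in the cytoplasm, and edgeR and DESeq2 on exon-bin reads summed per gene also called 0 in each. The median log2 difference of the 9 genes lay between -0.20 and 0.06 in the whole cell over the 7 knockdowns, where that of all genes was within 0.01 of 0, and between -0.31 and 0.11 in the cytoplasm, where that of all genes lay between -0.03 and 0.01.

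**Figure D2:**
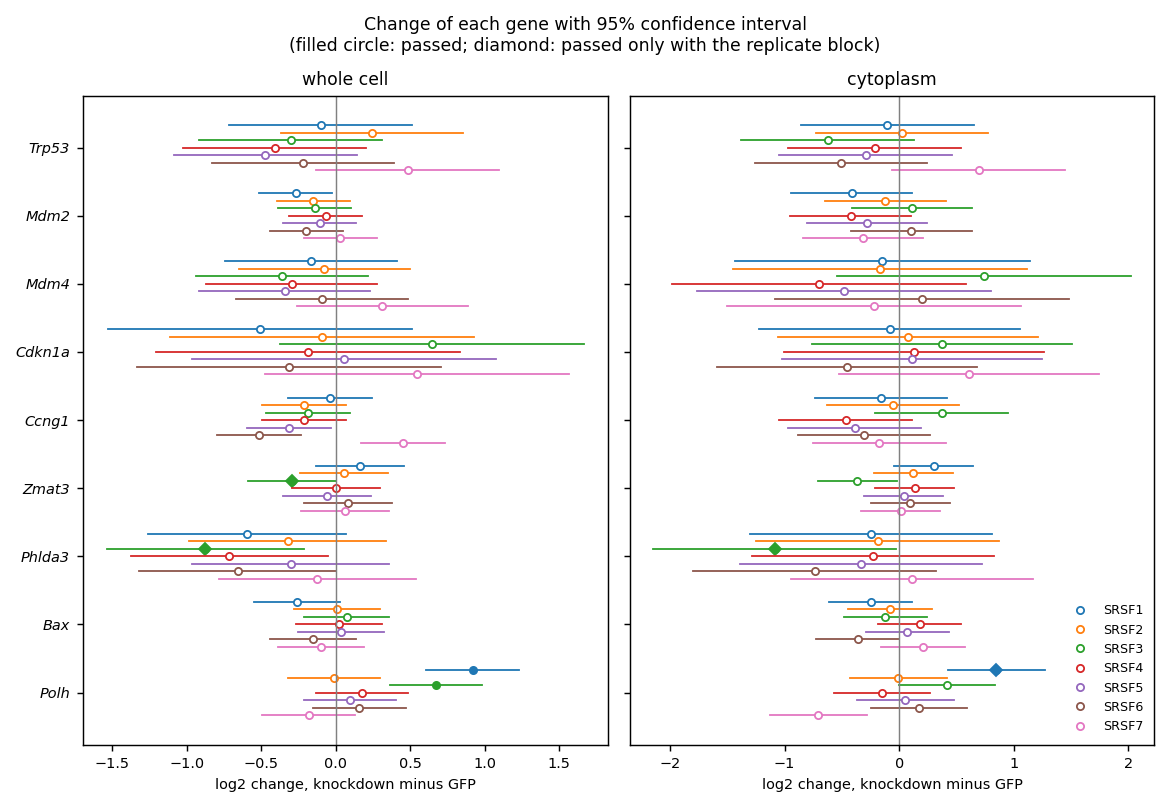
Log2 difference, knockdown minus GFP, for the 9 genes, whole-cell values on the left and cytoplasmic values on the right, one point per knockdown with its 95% confidence interval from the model without the block; filled circles passed the test and diamonds passed only with the block. The 2 filled circles are *Polh* after SRSF1 (0.92) and SRSF3 (0.67) knockdown in the whole cell.

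*Trp53* (ENSMUSG00000059552; mm10 chr11:69580359-69591873, plus strand) encodes the transcription factor at the centre of the pathway. Its whole-cell level was 69.5 (A) and 57.8 (B) scaled reads in GFP cells and 100 and 78.3 after SRSF7 knockdown, and it ran from 37.1 to 100 over all 16 libraries. In the cytoplasm GFP libraries held 120 and 147, SRSF7 libraries 230 and 210, and SRSF3 libraries 63.4 and 117. The SRSF7 libraries were above both GFP libraries in both fractions and held the highest value of each. The log2 differences, 0.48 (SE 0.28) in the whole cell and 0.69 (SE 0.34) in the cytoplasm, did not pass, with limma adjusted p of 0.812 and 1 and, with the block, 0.418 and 0.354. For SRSF3 the log2 difference in the cytoplasm was -0.62 (SE 0.34; adjusted p 0.476, 0.126 with the block). At this level an SE near 0.3 leaves 95% intervals over 1 log2 unit wide, so real changes could be missed. The smallest detectable change was not computed.

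*Mdm2* (ENSMUSG00000020184; mm10 chr10:117688888-117710758, minus strand) encodes the ubiquitin ligase that turns p53 over. It was among the steadiest of the 9 genes in the whole cell, with 2398 and 2522 scaled reads in GFP libraries and 1952 to 2616 over all 16. SRSF1 libraries were the lowest group at 1952 and 2131, both below both GFP libraries. Their log2 difference was -0.27 (95% interval -0.51 to -0.02), with an adjusted p of 0.315, or 0.051 with the block. For SRSF7 the difference was 0.03 (interval -0.21 to 0.28). In the cytoplasm *Mdm2* held 1173 and 1037 in GFP libraries, 970 and 700 after SRSF1, 1525 and 937 after SRSF3 and 807 and 855 after SRSF4 knockdown. The cytoplasmic SRSF1 and SRSF4 libraries were below both GFP libraries, each with a log2 difference of -0.42 (SE 0.24), and neither passed (adjusted p 0.647 and 0.917; 0.174 and 0.249 with the block).

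*Mdm4* (ENSMUSG00000054387; mm10 chr1:132989845-133025366, minus strand) encodes the partner of MDM2 that blocks p53 activity. Whole-cell levels were 2143 and 2028 in GFP libraries, 1378 and 1946 after SRSF3, and 2348 and 2845 after SRSF7 knockdown. SRSF3 libraries were both lower and SRSF7 libraries both higher than the GFP libraries, with log2 differences of -0.36 (SE 0.26; adjusted p 0.397, 0.0784 with the block) and 0.31 (SE 0.26; 0.932, 0.340 with the block). In the cytoplasm *Mdm4* was scarce: 98.9 and 78.1 in GFP libraries, 273 and 79.6 after SRSF3, and 46.4 to 148 in the other knockdowns. The SRSF3 A library alone was high, and the SRSF3 B library lay between the GFP libraries. The cytoplasmic difference for SRSF3 was 0.74 (95% interval -0.55 to 2.02; adjusted p 0.652, 0.218 with the block).

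*Cdkn1a* (ENSMUSG00000023067) encodes p21, the inhibitor of cyclin-dependent kinases that arrests the cell cycle and is the classic readout of p53. In the whole cell GFP libraries held 96.3 and 199 scaled reads, SRSF1 libraries 65.8 and 143, SRSF3 libraries 253 and 189, and SRSF7 libraries 169 and 242. The A library was below the B library in 7 of 8 groups of each fraction, and the GFP libraries alone spanned much of the range. The log2 differences ran from -0.51 (SRSF1) to 0.65 (SRSF3) with an SE of 0.47, and the smallest adjusted p over the 7 knockdowns was 0.392, or 0.0685 with the block, in both cases for SRSF3. In the cytoplasm GFP libraries held 173 and 291, SRSF3 libraries 295 and 288, and SRSF7 libraries 301 and 407. The SRSF7 libraries were both above the GFP libraries there (log2 0.61, 95% interval -0.53 to 1.74; adjusted p 1, 0.357 with the block). With the block, which fits the letter, that interval was 0.11 to 1.11, and it was 0.09 to 1.20 for SRSF3 in the whole cell. The other blocked intervals of *Cdkn1a* spanned both signs, and no knockdown passed over all genes.

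*Ccng1* (ENSMUSG00000020326) encodes cyclin G1, a p53 target that feeds back on MDM2. Whole-cell levels were 1349 and 1466 in GFP libraries, 2135 and 1719 after SRSF7, and 884 and 1088 after SRSF6 knockdown. SRSF7 libraries were the 2 highest of the 16 and SRSF6 libraries the 2 lowest. The log2 differences were 0.45 (95% interval 0.17 to 0.73) and -0.51 (interval -0.80 to -0.23). Neither passed over all genes: adjusted p was 0.434 for SRSF7 (0.0761 with the block) and 1 for SRSF6 (0.204 with the block). In the cytoplasm GFP libraries held 485 and 486, SRSF7 libraries 469 and 413, SRSF6 libraries 357 and 423, and SRSF3 libraries 811 and 489. The high SRSF7 values of the whole cell had no counterpart there, where the difference was -0.17 (SE 0.27).

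*Zmat3* (ENSMUSG00000027663) encodes a zinc finger protein that binds RNA and acts downstream of p53 in growth control. Whole-cell levels were 2136 and 2079 in GFP libraries, 1486 and 2021 after SRSF3, and 2309 and 2407 after SRSF1 knockdown. In the cytoplasm they were 2224 and 2198, 1477 and 2010, and 2719 and 2725. SRSF3 libraries were below and SRSF1 libraries above both GFP libraries in both fractions. The SRSF3 difference was -0.29 in the whole cell (95% interval -0.59 to 0.00; adjusted p 0.177, passing at 0.0435 with the block) and -0.36 in the cytoplasm (interval -0.71 to -0.02; 0.345, 0.0669 with the block). The SRSF3 A library carried most of it: without that library the whole-cell difference was -0.06 (adjusted p 0.878), and without the B library it was -0.53 (adjusted p 0.0140). The SRSF1 differences, 0.16 and 0.30, did not pass (adjusted p 0.661 and 0.593; 0.365 and 0.175 with the block).

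*Phlda3* (ENSMUSG00000041801) encodes a small pleckstrin homology protein, a p53 target that restrains AKT. GFP libraries of the whole cell held 118 and 126 scaled reads and SRSF3 libraries 54.2 and 81.4. SRSF1 libraries held 86.7 and 74.2, SRSF4 libraries 62.8 and 86.8, and SRSF6 libraries 56.9 and 103. All 7 knockdowns had a log2 difference below 0, from -0.12 (SRSF7) to -0.87 (SRSF3), in comparisons that share the GFP libraries. In the cytoplasm GFP libraries held 237 and 370 and SRSF3 libraries 96.8 and 200, with A below B in 8 of 8 groups.

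Within each letter *Phlda3* was thus lower after SRSF3 knockdown than in GFP cells in both fractions. The differences of -0.87 (SE 0.30) and -1.09 (SE 0.48) had adjusted p of 0.0811 and 0.359 without the block, and passed with it at 0.00604 and 0.00193. Left without the SRSF3 A library, the differences were -0.58 in the whole cell and -0.56 in the cytoplasm. The SRSF3 libraries also held the lowest sums of the epithelial and smooth muscle markers for their letter in the whole cell: 3095 (A) and 11688 (B), against 4769 and 15440 in GFP libraries. With the block 4 of the 6 markers passed as lower, at a list median of -0.57, and the pluripotency markers were lower as well, at 68114 and 59827 against 78862 and 71497, with 3 of 6 passing as lower. In the cytoplasm 2 and 1 of the 6 passed as lower. Their part in the SRSF3 results for *Phlda3*, *Zmat3*, *Polh* and the further genes below was not tested.

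*Bax* (ENSMUSG00000003873) encodes a pore-forming protein of the mitochondrial death pathway. It had the highest level per length of the 9 in GFP cells of both fractions by the authors' FPKM, and it varied little in scaled reads: 1816 to 2664 scaled reads in the whole cell, with 2240 and 2375 in GFP libraries, and 4698 to 8297 in the cytoplasm, with 6102 and 6712 in GFP libraries. SRSF1 libraries had the lowest mean of the whole cell, at 2044 and 1816, and SRSF6 libraries, at 4919 and 4969, had the lowest mean of the cytoplasm. The log2 differences of -0.26 (interval -0.55 to 0.03; adjusted p 0.417, 0.0867 with the block) and -0.36 (interval -0.73 to 0.00; 0.977, 0.268 with the block) did not pass. Over the 7 knockdowns the differences lay between -0.26 and 0.07 in the whole cell and between -0.36 and 0.21 in the cytoplasm.

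*Polh* (ENSMUSG00000023953) encodes DNA polymerase eta, which copies past ultraviolet lesions and is induced by p53. In the whole cell it rose from 426 and 464 scaled reads in GFP libraries to 937 and 755 after SRSF1 and to 791 and 647 after SRSF3 knockdown. Those 4 libraries were the highest of the 16, and the other knockdowns lay between 355 and 516. The rise was 1.89-fold for SRSF1 (log2 0.92, 95% interval 0.61 to 1.23; adjusted p 0.0155, 0.000531 with the block) and 1.60-fold for SRSF3 (log2 0.67, interval 0.36 to 0.98; 0.0141, 0.00123 with the block). Counting reads over exon bins gave the same calls, with edgeR adjusted p of 0.0239 and 0.0134. The SRSF1 call was lost without SRSF1 A (adjusted p 0.270), GFP A (0.136) or GFP B (0.0966), and the SRSF3 call without SRSF3 A (0.150), GFP A (0.0992) or GFP B (0.0518), while the log2 difference kept its sign each time, at 0.77 or more for SRSF1 and 0.54 or more for SRSF3.

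In the cytoplasm *Polh* held 342 and 358 in GFP libraries, 708 and 558 after SRSF1, 500 and 440 after SRSF3, and 192 and 250 after SRSF7 knockdown. SRSF1 and SRSF3 libraries were above both GFP libraries and SRSF7 libraries below both. The SRSF1 difference of 0.85 (95% interval 0.43 to 1.27) had an adjusted p of 0.139 and passed with the block at 0.00912. The SRSF3 difference of 0.42 (interval -0.01 to 0.84) and the SRSF7 difference of -0.71 (interval -1.13 to -0.28) did not pass (0.380 and 1; 0.117 and 0.127 with the block). Whole-cell SRSF7 libraries held 355 and 429, a difference of -0.18 (SE 0.14).

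**Figure D3:**
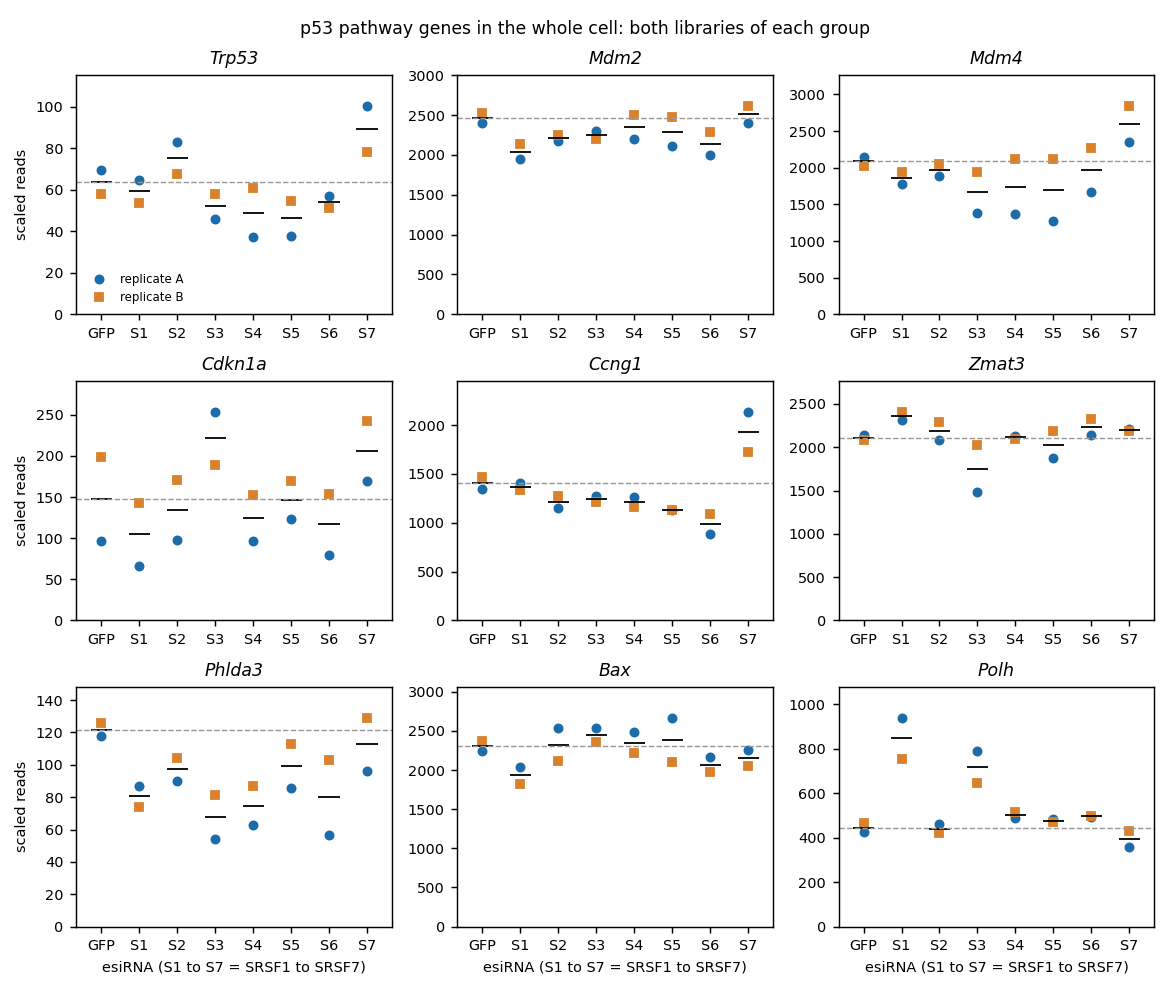
Scaled reads of the 9 genes in the whole cell for the 8 groups, with replicate A as circles, replicate B as squares, their mean as a bar and the GFP mean as a dashed line; each axis starts at 0. The *Polh* libraries of SRSF1 (937 and 755) and SRSF3 (791 and 647) stand above all others, while the *Cdkn1a* panel shows A below B in 7 of 8 groups.

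**Figure D4:**
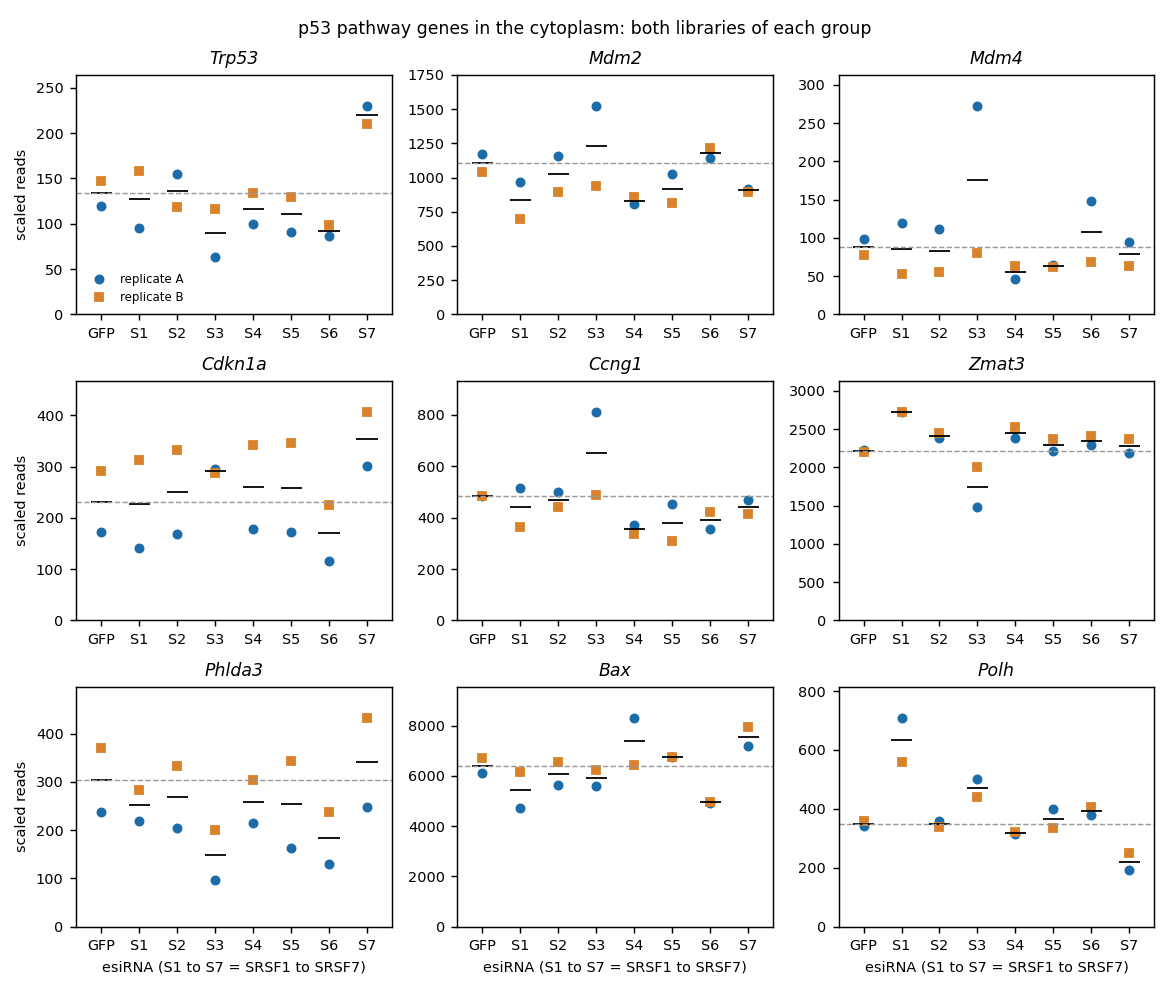
Scaled reads of the 9 genes in the cytoplasm, drawn in the same way. The SRSF1 libraries of *Polh* (708 and 558) are the highest of the 16, the SRSF3 A library of *Mdm4* (273) stands alone, and *Phlda3* has A below B in 8 of 8 groups.

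To ask whether a knockdown moved a gene differently in the cytoplasm than in the whole cell, the measure nearest to export, the cytoplasmic log2 difference minus the whole-cell one was tested in 1 model over all 32 libraries and 19184 genes. None of the 9 genes passed for any knockdown, with or without the block, by limma. The share of all genes that passed was 0.00521% for SRSF3 and 0.0% for the other 6 knockdowns without the block, and 0.0313% for SRSF1, 0.584% for SRSF3 and 0.0% for the other 5 with it. At an unadjusted p under 0.05 without the block 2 members were found for SRSF7, *Ccng1* and *Polh*, and 0 for the other knockdowns. *Mdm4* after SRSF3 knockdown had the smallest adjusted p with the block, 0.518, at a difference of 1.07 (95% interval -0.32 to 2.46 without the block). The *Polh* difference was -0.11 (interval -0.61 to 0.40) for SRSF1, so the whole-cell and cytoplasmic rises of *Polh* could not be told apart in size.

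The rest of the pathway was described with 45 further genes, of which 42 were tested in each fraction (*Pmaip1*, *Ptprv* and *Trp63* were too low). Without the block 1 test passed over all 14 comparisons: *Rfwd2*, which encodes COP1, another ubiquitin ligase for p53, fell after SRSF1 knockdown. It was measured at 2076 and 2292 scaled reads in GFP libraries and at 1356 and 1589 in SRSF1 libraries in the whole cell (log2 -0.57, SE 0.11; adjusted p 0.0358, 0.00166 with the block), and at 1358 and 1165 against 817 and 692 in the cytoplasm (log2 -0.74, SE 0.21; 0.236, 0.00804 with the block). SRSF1 libraries were below both GFP libraries in both fractions. In the whole cell without the block, 1 of 42 after SRSF1 knockdown stands beside 0.804% of all genes. After SRSF3 knockdown 0 of 42 stands beside 11.4%, so the list lay below the share of all genes in that model. In the cytoplasm without the block 0 of 42 stands beside 0.0455% for SRSF1 and 0.529% for SRSF3.

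With the block the 42 genes gave 2 higher and 3 lower after SRSF1, 1 and 3 after SRSF2, 9 and 5 after SRSF3 and 0 and 1 after SRSF7 knockdown in the whole cell, and 0 after SRSF4, SRSF5 and SRSF6. In the cytoplasm they gave 0 higher and 1 lower after SRSF1, 2 and 4 after SRSF3, and 0 after the others. The share of all genes passing with the block was 10.9% for SRSF1, 6.01% for SRSF2 and 1.09% for SRSF7 in the whole cell. In the cytoplasm it was 5.91% for SRSF1, 1.84% for SRSF2 and 13.9% for SRSF3. For SRSF3 14 of 42 stands beside 33.2% of all genes in the whole cell, and the median log2 difference of the list was -0.08 against -0.003 for all genes. With the block, the changed genes of the list after SRSF3 knockdown in the whole cell thus went in both directions at a share near that of all genes. Without the block 0 of 42 passed there, against 11.4% of all genes.

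Among targets in DNA repair and metabolism, *Ddb2*, which recognises ultraviolet damage, fell from 642 and 750 in GFP libraries to 339 and 485 after SRSF3 knockdown in the whole cell with the block (log2 -0.78, SE 0.24; adjusted p 0.0508, 0.000122 with the block). *Polh* and *Ddb2*, both of which deal with ultraviolet damage, went in opposite directions after SRSF3 knockdown in that model. *Ddb2* was listed among the targets by name, and whether p53 acts on the mouse gene was not tested. *Slc19a2*, a thiamine transporter, was measured at 549 and 536 in GFP and 912 and 682 in SRSF3 libraries (log2 0.53; 0.0768, 0.00384 with the block), and *Tigar*, a regulator of sugar metabolism, at 2046 and 2028 and at 2628 and 2464 (log2 0.31; 0.0555, 0.0121 with the block). After SRSF1 knockdown *Ddb2* held 491 and 591 (log2 -0.36; 0.542, 0.0395 with the block) and *Slc19a2* 771 and 681 (log2 0.42; 0.334, 0.0375 with the block).

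Among death targets after SRSF3 knockdown in the whole cell, *Perp*, a membrane protein also used in epithelial junctions, held 372 and 470 in GFP and 248 and 255 in SRSF3 libraries (log2 -0.74; adjusted p 0.0536, 0.000706 with the block). The nuclease gene *Aen* held 2391 and 2349 and then 3840 and 2724 (log2 0.44; 0.127, 0.00298 with the block), and *Trp53inp1*, which encodes a stress protein, held 1033 and 1081 and then 1542 and 1670 (log2 0.59; 0.136, 0.00590 with the block). *Perp* fell and the other genes rose in the model with the block. In the cytoplasm *Perp* (log2 -0.72; 0.353, 0.0157 with the block) and *Ddb2* (log2 -0.74; 0.474, 0.00878 with the block) again passed only with the block. Of the arrest targets *Plk2*, a polo-like kinase, held 189 and 327 in GFP and 431 and 372 in SRSF3 libraries of the whole cell (log2 0.67; 0.442, 0.0352 with the block), and 93.1 and 214 against 301 and 289 in the cytoplasm (log2 1.05; 0.275, 0.00741 with the block).

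Of the genes upstream of p53, the checkpoint kinase *Chek2* held 1984 and 1729 in GFP and 2707 and 2282 in SRSF3 libraries of the whole cell (log2 0.41; adjusted p 0.0570, 0.00213 with the block). The kinase *Atm* held 3429 and 2266 and then 4025 and 3190 (log2 0.35; 0.349, 0.00957 with the block), and *Trp53bp1*, a DNA damage adaptor, 6733 and 5208 and then 4944 and 4529 (log2 -0.34; 0.136, 0.00616 with the block). *Atr*, the kinase of replication stress, held 2670 and 2630 in GFP and 1519 and 2098 in SRSF2 libraries (log2 -0.57; 0.306, 0.00720 with the block). The *Atm* libraries of SRSF3 overlapped those of GFP and were separated only within a letter. The ribosomal protein genes *Rpl5*, *Rpl11* and *Rpl23*, whose products bind MDM2, gave 0 calls in every comparison of both models.

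Exon bins, the stretches of a gene cut at every annotated exon end, were used to ask whether the knockdowns changed which parts of *Mdm2* (30 bins), *Mdm4* (15) and *Trp53* (22) were used. Each bin's difference relative to the rest of its gene was tested with limma diffSplice on the 2 knockdown and 2 GFP libraries, at an adjusted p of 0.1 over all bins of the table. Of 541 tests over the 14 tables, 0 passed without the block and 1 with it. At an unadjusted p under 0.05 there were 11 (2.03%) without the block and 16 with it, and edgeR diffSpliceDGE called 0. Coverage set a limit: 22 to 23 bins of *Mdm2*, 13 of *Mdm4* and 4 to 9 of *Trp53* could be tested in the whole cell, and 17 to 18, 4 to 10 and 11 to 12 in the cytoplasm.

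Over all genes, the share of bins that passed in the whole cell was 0.322%, 0.112%, 0.394%, 0.0%, 0.0%, 0.00328% and 0.0725% for SRSF1 to SRSF7 without the block and 0.514%, 0.17%, 0.496%, 0.0%, 0.0%, 0.0137% and 0.143% with it. In the cytoplasm it was 0.183%, 0.0139%, 0.499%, 0.00207%, 0.00338%, 0.00666% and 0.0518% without the block and 0.956%, 0.0229%, 1.81%, 0.0117%, 0.0054%, 0.0819% and 0.323% with it.

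The 1 bin that passed with the block was the 3′-most bin of *Mdm4* (E001, 1510 bases, mm10 chr1:132989845-132991354), in the cytoplasm after SRSF3 knockdown. This bin belongs to the transcript with the longer 3′ end, and the adjoining bin E002 (871 bases, chr1:132991355-132992225) is in both annotated transcripts. In the cytoplasm GFP libraries held 38 and 38 reads in E001 and 25 and 28 in E002, while SRSF3 libraries held 39 and 23 in E001 and 104 and 35 in E002. The ratio of E001 to E002 was thus 1.52 and 1.36 in GFP libraries and 0.375 and 0.657 in SRSF3 libraries, and it was 0.879 to 2.42 in the other 12. Bins E003 and E004 held more reads too, with 7 and 5 and with 6 and 6 reads in GFP libraries. In SRSF3 libraries they held 32 and 12 and 40 and 13 reads. E001 itself was near the GFP reads in SRSF3 A and below them in SRSF3 B. These reads are not scaled for depth, and the SRSF3 B library was deeper. It held 68431199 exon-bin reads, against 44919456 in SRSF3 A and 42726617 and 54080490 in GFP libraries. In scaled reads *Mdm4* as a whole was higher than GFP (98.9 and 78.1) only in SRSF3 A (273), not in SRSF3 B (79.6). The ratio within a library does not depend on depth. The difference in use was -1.93 on the log2 scale without the block (adjusted p 0.734) and -2.00 with it (adjusted p 0.0340), and edgeR diffSpliceDGE gave an adjusted p of 1. It passed without the block only when SRSF3 B was left out (adjusted p 0.0111).

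In the whole cell, where *Mdm4* has far more reads, the same ratio was 1.58 and 1.49 in GFP libraries (884 and 956 reads in E001, 560 and 640 in E002) and 1.37 and 1.24 in SRSF3 libraries (481 and 830 reads, 350 and 669). The SRSF3 libraries held the 2 lowest ratios of the 16, and the other knockdowns lay between 1.42 and 1.69. The bin did not pass there. The comparison of E001 with E002 was chosen after its values were seen and was not tested on its own.

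**Figure D5:**
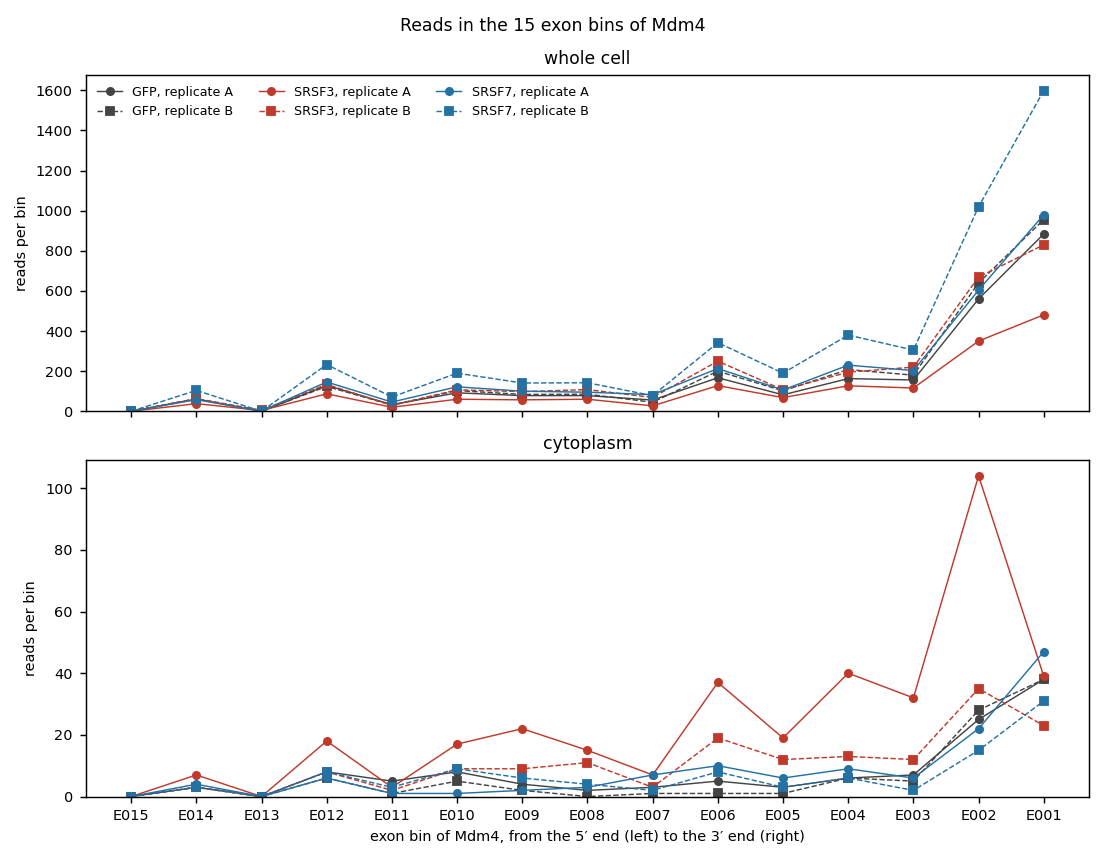
Reads in the 15 exon bins of *Mdm4*, from the 5′ end (left) to the 3′ end (right), in the whole cell (top) and the cytoplasm (bottom, another scale), for GFP, SRSF3 and SRSF7 libraries, with A as circles and B as squares. In the cytoplasm the last bin, E001, is below E002 in both SRSF3 libraries (39 against 104 and 23 against 35) and above it in the GFP and SRSF7 libraries. The reads are not scaled for depth.

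The 68-base exon of *Mdm4* whose sequence is given above (bin E007) was read at 21 to 83 reads per library in the whole cell. Per 100 reads of the 2 neighbouring bins E006 and E008 it held 12.3 (SRSF5 A) to 26.9 (SRSF7 A), with 22.9 and 15.8 in GFP libraries, and 18.1 over all 16 libraries (813 of 4496 reads). The GFP libraries alone spanned much of that range, and no knockdown passed for this bin. In the cytoplasm 0 to 7 reads per library fell in the exon, 40 beside 262 in its neighbours over all 16 (15.3 per 100), so a change in its skipping was not detectable at this depth.

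Of the 6 *Mdm2* bins that belong to 1 transcript each, E006, E010 and E013 were picked after their values were seen and are given as a description. Together they held 0.430 to 1.48% of the *Mdm2* reads in the whole cell, 466 of 53079 reads in all, and 17 of 22289 reads (0.0763%) in the cytoplasm. SRSF7 libraries had the 2 highest whole-cell shares, 1.48% (A) and 1.26% (B), against 0.812% and 0.792% in GFP libraries and at most 1.01% in the others. Over all 6 bins the SRSF7 shares were 1.73% (A) and 1.51% (B), against 1.17% and 1.20% in GFP libraries and at most 1.47% in the others. Bin E010 had a log2 difference in use of 1.20 after SRSF7 knockdown and an adjusted p of 1. The *Trp53* bins gave 0 tests at an unadjusted p under 0.05 without the block, on 4 to 12 bins per table.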

How the data were processed

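The 9 genes and the further pathway and marker lists were chosen with earlier results of these data known. Per the labels, the processing used Cufflinks 2.1.1, Bowtie2 2.1.0, TopHat2 (2.0.9, 2.0.10), cutadapt and CASAVA 1.8.2, with builds mm10 and mm9 named. The authors deposited a gene signal per library (estimated reads divided by a library factor, called scaled reads here), FPKM per condition with both libraries combined, and exon-bin signal, from which whole reads were recovered (100% of values whole within 0.01). The deposited columns of the authors' own comparisons were not used.

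Genes were fitted in limma 3.58.1 (R 4.3.3) on log2(signal + 1) after TMM factors and filterByExpr from edgeR 4.0.16, with a variance trend and all 16 libraries of a fraction; 6 genes per fraction listed at 0 despite exon-bin reads were left out. Bins needed a mean of 5, and diffSplice used vooma weights. All tests were two-sided. The limma gene test of each fraction, with and without the block, was also run on simulated data for SRSF7 against GFP. For the bins this was done in the whole cell without the block. The other tests were not run on simulated data. The letters pair the libraries: A minus B differences of 2 groups correlated at 0.238 to 0.814 (Spearman, 28 pairs of groups, 12646 genes) in the whole cell and at 0.449 to 0.827 in the cytoplasm (11800 genes). The genes named beside the 9 are the 12 of 21 passing pathway genes with the smallest adjusted p in either model; bins named are those that passed and the *Mdm4* exon. Alternatives were DESeq2 1.42.0 and edgeR on exon-bin reads summed per gene (added after seeing the data), other size factors, filters and pseudocounts, 4 libraries per fit and leaving out each library.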

Additional observations from a re-analysis of the deposited data

Results flagged for a closer look

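These 3 differences were singled out because both knockdown libraries lay on one side of both GFP libraries in the whole cell and on the other side in the cytoplasm. For *Ccng1* after SRSF3 knockdown the cytoplasmic minus whole-cell log2 difference was 0.53 (adjusted p 1 by limma, 0.582 with the block). For *Ccng1* after SRSF7 knockdown it was -0.63 (adjusted p 1, 0.935 with the block), and for *Polh* after SRSF4 knockdown -0.35 (adjusted p 1, 0.730 with the block). None of the 3 passed the test of the difference itself. For *Ccng1* after SRSF3 knockdown the cytoplasmic side rested on SRSF3 A, at 811, since SRSF3 B held 489 against 485 and 486 in GFP libraries.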

How the results depend on the processing

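No difference that passed its test, in the main model or in an alternative, changed sign. Of the 190 differences, 81 that did not pass changed sign in at least 1 alternative (122 of 1834 values), such as *Phlda3* relative cytoplasmic level after SRSF3 knockdown at -0.24, and 0.03 without GFP B. With the replicate block, which pairs libraries by letter, the members called went from 0 to 1 in the cytoplasm for SRSF1, from 0 to 1 for SRSF3, and from 1 to 3 in the whole cell for SRSF3; of the bins of *Mdm2*, *Mdm4* and *Trp53*, it gave 1 in the cytoplasm for SRSF3, and it changed no other count. DESeq2 on summed exon-bin reads called 1 in the cytoplasm for SRSF1. With only the 4 libraries of a comparison the whole-cell counts for SRSF1 and SRSF3 were 0. Leaving out 1 library at a time gave 0 to 1 members for SRSF1 and 0 to 3 for SRSF3 in the whole cell, and 0 to 1 bins for SRSF2 (*Mdm2* E008, adjusted p 0.0974 by limma without SRSF2 B) and for SRSF3 in the cytoplasm. The cause of these changes was not tested. Over the alternatives other than leaving out a library, the adjusted p of *Polh* in the whole cell ranged from 1.28e-05 to 0.108 for SRSF1 and from 0.000461 to 0.102 for SRSF3. Tests with edgeR and DESeq2 on reads recovered from the gene tables were not run, because those values did not resolve into whole reads. With 2 libraries a group, an exact permutation test could not go below 0.333.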

Other observations

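The genes whose whole-cell pattern was most like that of *Cdkn1a* over the 16 libraries, by Pearson correlation of log2 values among 12587 genes, were *Ik* (r = 0.941), *Zfp9* (0.934), *Rala* (0.933), *Rhoa* (0.896) and *Zfp677* (0.893). The points share GFP and letter effects, and the values are a description.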
